A study of Mus musculus with 4 samples.

Results

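The chromVAR motif entries of 7 homeodomain transcription factors, Pitx1, Pitx3, Otx1, Otx2, Crx, Gsc and Dmbx1, were followed in splenic regulatory T cells (Tregs) of mice given vehicle or venetoclax. They were taken by factor name from a table of 1346 motif entries for 802 factor names. All 7 names were present, with 9 entries, since Otx1 and Crx have 2 each. The 9 entries hold 8 distinct sets of scores, because 1 of the Otx1 entries and the Otx2 entry are identical in every sample. No filter was applied, so every entry is included in what follows. The factors were chosen by their scores in this same comparison, with the venetoclax and vehicle values already known and the Pitx1 entry among the lowest differences of the table (7th of 1346). The members' own values in this contrast are therefore given as a description, with no test.

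The study profiled open chromatin by ATAC-seq, in which a transposase cuts accessible DNA, in CD4+ FOXP3+ Tregs from spleen. There were 2 vehicle samples and 2 samples from mice treated with venetoclax at 50 mg/kg, both for 14 days. Venetoclax blocks BCL-2, a protein that protects cells from apoptosis. All mice, controls included, were labelled wild type on the B6.Cg-Foxp3tm2Tch/J strain (FOXP3-IRES-GFP), in which GFP is read out from the Foxp3 locus. The sources used here do not give the age of the mice or whether a sample is 1 animal or a pool. The 2 samples of a group are labelled as biological replicates, and any p-value measures only spread between such samples. In the limma linear model each entry's own spread has 2 residual degrees of freedom. It is pulled toward a value pooled over all entries, which gives 21 in total. A limma SE or p-value is therefore not the spread of that entry's own samples alone. The table holds motif scores and no gene expression or loci, so the identity of the sorted cells was not checked against markers. In such bulk samples, a shift in which Tregs are present and a shift in chromatin within each cell cannot be told apart.

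Homeodomain proteins bind short sites built around a TAAT core through a recognition helix. The Pitx, Otx, Crx, Gsc and Dmbx1 proteins belong to a class that has lysine at a position of that helix where most homeodomains have glutamine, and this lysine favours cytosines directly after the core. The class is best known from development of the head, eye, pituitary and limb, not from T cells. A chromVAR score belongs to the sequence pattern over all peaks that hold it. It compares the accessibility of those peaks in a sample with that expected from the average over the samples scored together, and background peaks serve to correct for bias. A score of 0 is therefore that average. Which samples were scored together is unknown, so the place of 0 is not defined by the vehicle samples, and a sign is relative. The score says nothing of whether the named factor is made or bound. The scores have no unit, and the depth behind each is unknown.

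Of the 9 entries, 8 had a lower mean score with venetoclax than with vehicle, while 61.3% of all 1346 entries did. In 7 of the 9, both venetoclax scores lay below both vehicle scores, against 31.1% of all entries. Counted by the 8 distinct sets of scores, 7 had a lower mean and 6 did not overlap. The shares of all entries count repeated scores as well. The median difference of the 9, venetoclax minus vehicle, was -2.00 score units, with a range from -3.31 to 0.11, and the median over all entries was -0.29. Relative to that general shift the members' median was -1.71, and with every sample centred at its median score it was -1.74 as a plain difference, where the median of all entries was -0.03. Because the factors were picked with this contrast in view, nothing is read from the distance between these shares and medians. In limma, 0 of the 1346 entries (0%), and so 0 of the 9, passed an adjusted p of 0.05. An unadjusted p under 0.05 was found for 246 entries, and an ordinary linear model also called 0. A variance allowed to depend on the mean and robust to outliers called 74, and leaving out venetoclax replicate 1 gave 337.

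**Figure D1:**
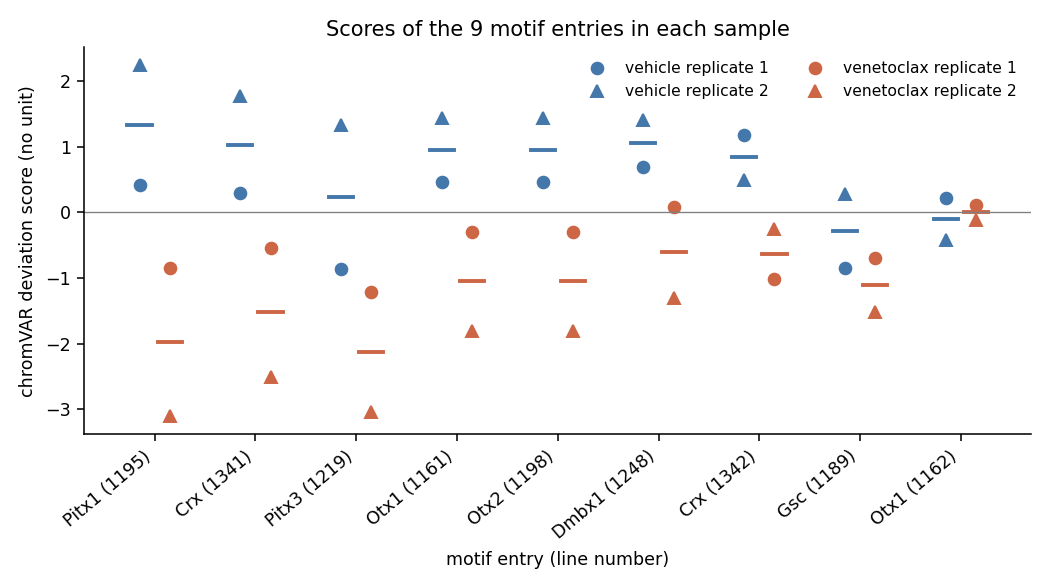
chromVAR deviation score (no unit) of each of the 9 motif entries, ordered by difference, with the 2 vehicle samples in blue and the 2 venetoclax samples in orange; horizontal bars are group means and the number beside each name is its line in the motif collection. From Pitx1 to the Crx entry of line 1342 the groups do not overlap, while for Gsc and the Otx1 entry of line 1162 they do.

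Pitx1 directs hindlimb identity and pituitary gene expression. Its entry (line 1195 of the motif collection) scored 0.42 and 2.25 in vehicle replicates 1 and 2, and -0.85 and -3.11 in venetoclax replicates 1 and 2. Both vehicle scores were above 0 and both venetoclax scores below it, without overlap. The score in venetoclax replicate 2 was the lowest of all 1346 entries in that sample, and the score in vehicle replicate 2 was the 24th highest of its sample. In the first replicates the entry stood at place 220 from the lowest with venetoclax and at place 828 with vehicle, so only the second replicates put it near an end of the list. The vehicle mean was 1.33 ± 1.29 and the venetoclax mean -1.98 ± 1.60 (SD, n = 2 samples each), which gives a difference of -3.31 (limma SE 0.82).

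Pitx3 is needed for the lens and for dopaminergic neurons of the midbrain. Its entry (line 1219) scored -0.87 and 1.32 in the vehicle samples and -1.21 and -3.04 in the venetoclax samples. The groups did not overlap, but vehicle replicate 1 lay close to venetoclax replicate 1, with 0.35 between the higher venetoclax and the lower vehicle score. In venetoclax replicate 2 the entry was the second lowest of the table after Pitx1, together with the Obox5 entries described below. Its difference was -2.36 (SE 0.81), from a vehicle mean of 0.23 ± 1.55 to a venetoclax mean of -2.13 ± 1.30 (SD, n = 2 samples each).

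Otx2 is required for the forebrain and midbrain, and Otx1 for the cerebral cortex and sense organs. The Otx2 entry (line 1198) and the first Otx1 entry (line 1161) scored 0.46 and 1.44 in the vehicle samples and -0.30 and -1.81 in the venetoclax samples. These are the same 4 values under 2 names and count as 1 measurement. Vehicle samples were above 0 and venetoclax samples below, with venetoclax replicate 1 near 0. The means were 0.95 ± 0.70 and -1.05 ± 1.07 (SD, n = 2 samples each), a difference of -2.00 (SE 0.74).

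The second Otx1 entry (line 1162) did not share this order. It scored 0.21 and -0.42 in the vehicle samples and 0.11 and -0.11 in the venetoclax samples, so the venetoclax samples lay between the vehicle samples. Its difference of 0.11 (SE 0.69) was the positive one among the 9 entries. It was -0.21 without vehicle replicate 2 and -0.0059 without venetoclax replicate 1, so its sign depended on single samples. The 2 entries of Otx1 therefore stood 2.11 score units apart in difference, and no SE of that distance was computed.

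Crx controls photoreceptor genes in the retina. The first Crx entry (line 1341) scored 0.29 and 1.78 in the vehicle samples and -0.54 and -2.51 in the venetoclax samples, a difference of -2.55 (SE 0.78). In venetoclax replicate 2 it was the 13th lowest entry of the table. The second Crx entry (line 1342) scored 1.18 and 0.50 in the vehicle samples and -1.02 and -0.25 in the venetoclax samples. Here too the groups did not overlap, but the order within each group was the opposite of that of the first entry, with vehicle replicate 1 highest and venetoclax replicate 1 lowest. Its means were 0.84 ± 0.48 and -0.63 ± 0.55 (SD, n = 2 samples each), a difference of -1.47 (SE 0.70).

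Dmbx1 acts in the developing midbrain and diencephalon. Its entry (line 1248) scored 0.70 and 1.41 in the vehicle samples and 0.087 and -1.30 in the venetoclax samples. The groups did not overlap, and venetoclax replicate 1 was just above 0. The difference was -1.66 (SE 0.72). Gsc, a repressor active in the early embryonic organizer, scored -0.85 and 0.29 in the vehicle samples and -0.70 and -1.52 in the venetoclax samples (line 1189). Vehicle replicate 1 fell between the venetoclax samples, so the groups overlapped, and the difference was -0.83 (SE 0.72).

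Ordered by difference, the entries ran from Pitx1 through Crx (line 1341), Pitx3, the shared Otx1 and Otx2 scores, Dmbx1, Crx (line 1342) and Gsc to Otx1 (line 1162). Steps between neighbours with different scores were from 0.19 to 0.93, and the SEs were from 0.69 to 0.82. The step of 0.93 from Gsc to Otx1 (line 1162) was the one larger than the SE of both neighbours, and the step of 0.76 from Pitx1 to Crx was smaller than the Pitx1 SE. The entries were scored in the same samples, so these SEs are not those of a step between 2 entries. With 2 samples a group, the order of close neighbours was not tested.

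**Figure D2:**
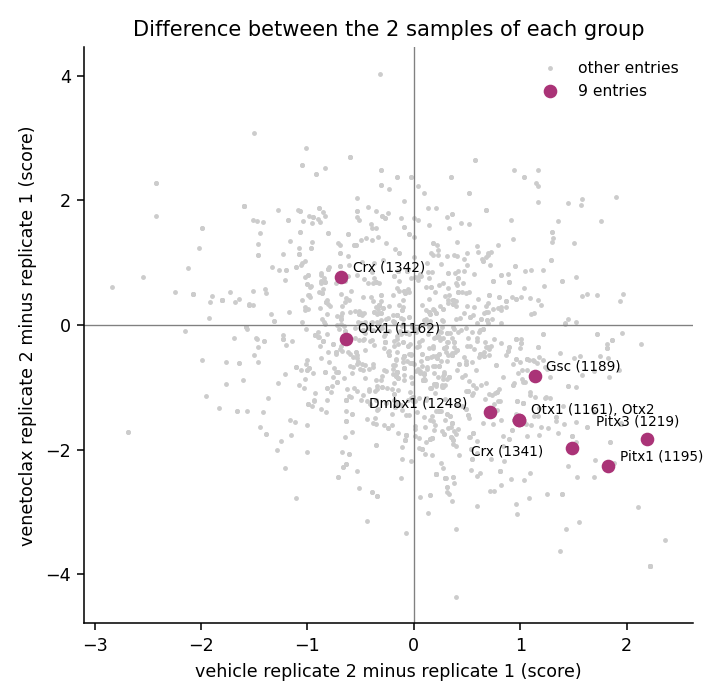
Score of replicate 2 minus replicate 1 in the venetoclax group against the same in the vehicle group, for all entries (grey) and the 9 entries (purple). Of the 9, 7 lie at the lower right, where replicate 2 was higher with vehicle and lower with venetoclax, and the entries of Crx (1342) and Otx1 (1162) lie elsewhere.

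The samples of a group differed from each other in most of these entries. The median absolute difference between the 2 venetoclax samples was 1.52 over the 9 entries and 0.84 over all entries. With every sample centred at its median score, these values were 1.15 and 0.82. Between the 2 vehicle samples the median absolute difference was 0.99 over the 9 and 0.54 over all, and 1.02 and 0.55 after centring. In 7 of the 9 entries vehicle replicate 2 was the highest of the 4 samples and venetoclax replicate 2 the lowest, an order found in 25.1% of all entries. These 7 are Pitx1, Pitx3, Otx2, Dmbx1, Gsc, Crx (line 1341) and Otx1 (line 1161). By distinct sets of scores, this order was found in 6 of 8. Venetoclax replicate 2 was also low over the whole table, where its median score was -0.28 and those of the other samples were between 0.09 and 0.18. The members' median in that sample was -1.81, and all 9 were below 0 there, as were 62.6% of all entries. In venetoclax replicate 1 the members' median was -0.54 with 7 of 9 below 0, while the median of all entries was 0.09 with 45.8% below 0. The part of replicate 2 in these differences beyond the values given here was not tested.

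**Figure D3:**
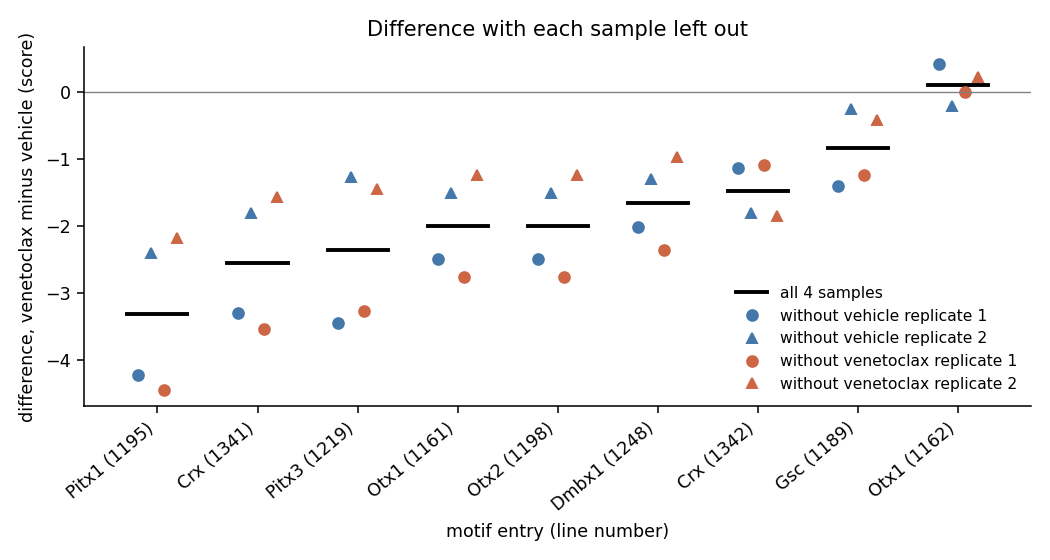
Difference, venetoclax minus vehicle, of each of the 9 motif entries with all 4 samples (black bars) and with each sample left out (points, the colour and shape naming the sample). Points without replicate 2 of either group (triangles) lie nearest to 0 for 7 of the 9 entries, and 8 of the 9 entries stay below 0 in every case.

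When single samples were left out, the 8 entries with a negative difference stayed negative. The Pitx1 difference ranged from -4.44 without venetoclax replicate 1 to -2.18 without venetoclax replicate 2. For Pitx3 it ranged from -3.45 without vehicle replicate 1 to -1.26 without vehicle replicate 2. The shared Otx1 and Otx2 scores ranged from -2.76 to -1.24, Crx (line 1341) from -3.54 to -1.57 and Dmbx1 from -2.36 to -0.97, each nearest to 0 without venetoclax replicate 2. Of these 8, Gsc moved most in proportion, from -1.40 to -0.26, nearest to 0 without vehicle replicate 2. Crx (line 1342) ranged from -1.86 to -1.09 and was nearest to 0 without venetoclax replicate 1, again the reverse of the other Crx entry. Without venetoclax replicate 2 the members' median was -1.24, while that of all entries was -0.10, and 7 of 9 entries kept the remaining venetoclax score below both vehicle scores, against 38.6% of all entries. Without vehicle replicate 2 the members' median was -1.51.

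Several of these scores recur under other names. The Pitx3 scores are repeated by 2 entries of Obox5, 1 of which the table lists by protein accession. The scores of Dmbx1, Crx (line 1342) and Otx1 (line 1162) each recur in an entry of Prrxl1, a paired-like factor of sensory neurons whose entries are marked as inferred. All 9 entries of the Pitx, Otx, Crx, Gsc and Dmbx1 factors are marked as direct. The entries of Pitx1, Gsc and Crx (line 1341) are not repeated elsewhere.

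The entries nearest to Pitx1, by Euclidean distance over the 4 scores and leaving out the 9 entries themselves, were those of Obox3-ps8 at 0.73, Obox1 at 1.01 and 1 entry of Prrxl1 at 1.27. The nearest of the 9 to Pitx1 was Crx (line 1341) at 0.83. The nearest to that Crx entry were Obox1 at 0.38, Obox3-ps8 at 0.42 and the entry shared by the zinc finger factors Zbtb7a and Zbtb7c at 0.56. Each of these was nearer to it than any of the 9, of which the shared Otx1 and Otx2 scores were closest at 0.82. Beyond the repeated Obox5 scores, the nearest to Pitx3 were Irf1 at 1.08, Foxa2 at 1.10 and Rfx3 at 1.21, which are factors of other families. The closest of the 9 to Pitx3, Crx (line 1341), was farther away at 1.51. With 4 samples and 976 distinct sets of scores, likeness of this kind is found between unrelated motifs as well.

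The Obox genes are homeobox genes expressed in oocytes and early embryos and are relatives of Crx. Crx (chr7:15865947-15879955, GRCm38.p6) and Obox6 (chr7:15833250-15839679) lie near each other on mouse chromosome 7, close to Obox5, Obox3 and Obox1. All 6 Obox entries had a negative difference, as did 61.3% of all entries, and in all 6 both venetoclax scores lay below both vehicle scores, against 31.1% of all entries. The 6 entries hold 5 distinct sets of scores, and 2 of them are the Pitx3 scores. Their median difference was -2.36, and -1.86 over the 4 entries that do not repeat the Pitx3 scores. Obox3-ps8, a pseudogene listed under an older name, was at -2.79 (SE 0.80), Obox1 at -2.51 (SE 0.75) and Obox5 at -2.36 (SE 0.81). Obox3 at -1.21 (SE 0.69) and Obox6 at -0.52 (SE 0.68) were nearer to the median of all entries.

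Gsc2, the paralog of Gsc, was looked at after its values had been seen. Its entry scored -0.15 and 1.54 in the vehicle samples and -0.90 and -1.63 in the venetoclax samples, a difference of -1.96 (SE 0.74). The groups did not overlap, and vehicle replicate 2 was highest and venetoclax replicate 2 lowest. For Gsc itself the groups overlapped, with a difference of -0.83.

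**Figure D4:**
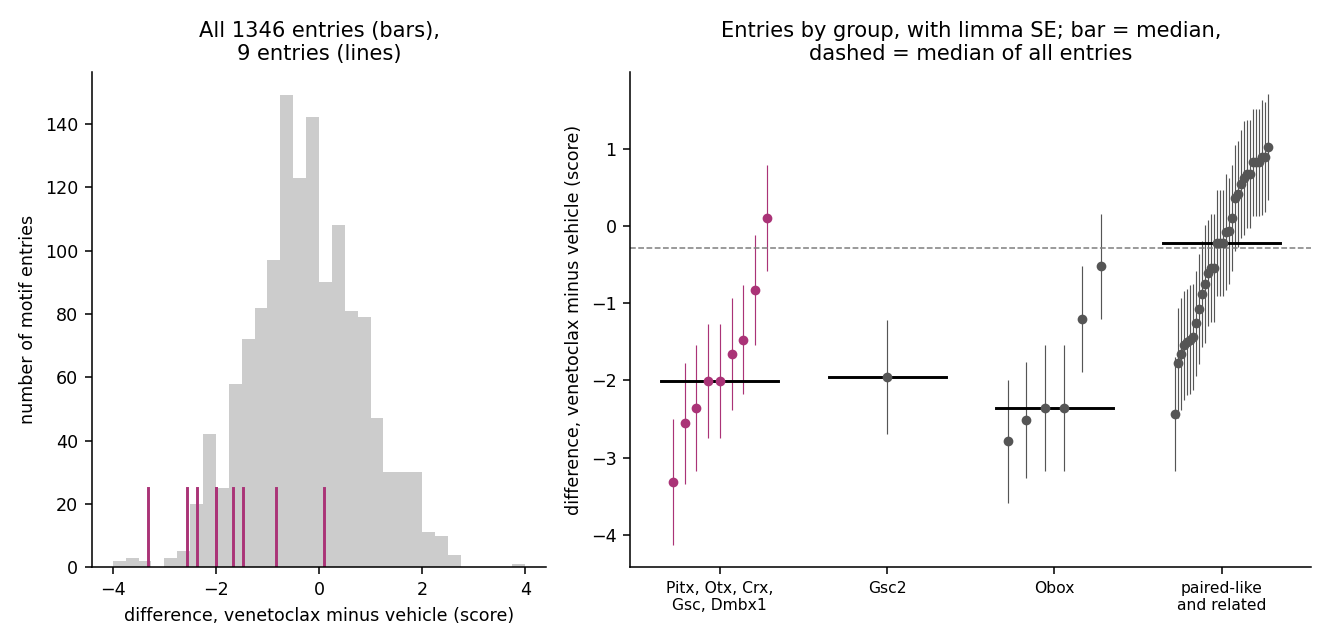
Left, number of motif entries by difference, venetoclax minus vehicle (bars, all 1346 entries), with the 9 entries as purple lines. Right, the difference of each entry with its limma SE for the 9 entries and for 3 groups of other homeodomain entries. Black bars are the group medians and the dashed line is the median of all entries (-0.29). The median is -2.00 for the 9 entries. It is -0.22 for the paired-like and related entries, with or without those that repeat scores of the 9. The Obox median of -2.36 is the Pitx3 difference itself, as 2 Obox entries repeat the Pitx3 scores, and it is -1.86 without those 2.

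A list of 20 other homeodomain factors, most of them paired-like, had a median difference of -0.22 over 32 entries, with 19 negative and 13 positive, and the median was 0.038 with every sample centred and 0.022 without venetoclax replicate 2. The whole list ran from Prrxl1 at -2.44 to another Prrxl1 entry at 1.02. Its median relative to all entries was 0.07. Whether the Pitx, Otx, Crx, Gsc and Dmbx1 entries differ from these was not tested, since the members were picked in this contrast.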

How the data were processed

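The deposited table holds a chromVAR deviation score per motif entry and sample, per the file's name and header, with the authors' group means, difference and rank. The submitters' processing notes name Bowtie2, Picard, MACS2 and mm10 but no versions or roles. The sources used here do not give the peak set, background peaks, motif collection, kind of score or which samples were scored together. Of 12 sample columns, 8 match no described sample and were not used. Scores were used as deposited. Groups came from the sample titles. The background over 1346 entries came from limma 3.58.1 in R 4.3.3, two-sided, Benjamini-Hochberg threshold 0.05. The limma step was tested on simulated data. Scores identical to 9 decimals counted as 1 set. Gene names and positions came from RefSeq GRCm38.p6, which all 7 names matched. Members, lists, the rule for named factors (all members, the 3 nearest entries for 3 of them, Obox and the ends of the paired-like list) and alternatives were chosen with earlier results of these data known. A planned split of homeodomains by protein residue was not run, as no protein sequences were used, and lists by name took its place. Alternatives were left-out samples, scalings, variance models, the replicate block and duplicate handling. Depth is unknown, so no counting interval is given. The rule also named some entries that are not reported here.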

Additional observations from a re-analysis of the deposited data

How the results depend on the processing

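Over the alternatives run, the 8 entries with a negative difference kept that sign, and negative differences numbered 8 or 9 of 9, while their share of all entries ran from 50.4% to 61.7%. Entries with every venetoclax score below every vehicle score numbered 7 or 8 of 9, while that share ran from 23.7% to 54.3%. The 8 of 9 came with a sample left out, where the share was 42.6% to 54.3%. The members' median ranged from -2.76 to -1.24 with a sample left out, was -1.83 with 1 entry per distinct set of scores and -1.74 to -1.89 under 3 scalings. With direct entries only it was -2.00 again, as all 9 are direct, and a planned fit of inferred entries had none to use. The number of entries past an adjusted p of 0.05 in limma, 0 with all samples, was 74 with a trended and robust variance and 0 to 337 with a sample left out. The cause was not tested. A fit with 1 venetoclax sample assumes that it varied like the vehicle samples. The Otx1 (line 1162) difference ranged from -0.21 to 0.42 with a sample left out. The paired-like median of -0.22 was 0.038 after centring, 0.021 after centring and division by the SD, 0.030 after quantile normalization, -0.39 with 1 entry per distinct set of scores and -0.47 to 0.022 with a sample left out, the positive end without venetoclax replicate 2.

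The replicate numbers are shared by the groups, but the labels do not say that they pair the samples, and the deviations of replicate 1 from its group mean correlated at -0.268 between groups, across entries. With the replicate block, limma again called 0 entries. The differences are the same by construction, and the Pitx1 SE was 1.11 with the block and 0.82 without.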
